A study of Mus musculus with 2 samples.

Results

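The mitochondrially encoded transcripts were taken as all rows of the deposited read table whose gene name begins with MT- or mt-, which gave 36 of 22836 rows. Of these rows 13 are protein-coding, 2 are ribosomal RNAs and 21 are transfer RNAs. A cut at 25% of reads, a usual filter on single cells, was applied to cells after the rows had been chosen, and values are given before and after it.

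The cells were CD45+ leukocytes taken from tumours grown under the skin of 14 BALB/c mice from Colon26 mouse colon carcinoma cells, each mouse marked with its own hashtag antibody and read in a shared cDNA library made on the BD Rhapsody system. The minP1_PDL1 mice (n = 4) received minP1, a peptide of the nucleosome-binding protein HMGN1, at 0.08 µg on day 9 after tumour inoculation, and antibody 10F.9G2 against PD-L1, whose receptor PD-1 restrains T cells, at 200 µg on each of days 4 and 8. The minP1 mice (n = 4) received the peptide alone, the PDL1 mice (n = 3) the antibody alone, and the Control mice (n = 3) neither agent. All mice were wild type and carried the same tumour line, both agents were given intraperitoneally, and tumours were taken on day 10. The replicates are separate mice. The tumours were digested by enzymes and passed over Percoll to remove tumour and dead cells. The labels also speak of separate runs of the system and do not say which mice shared one, so a run and a group cannot be told apart.

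The mouse mitochondrial genome is a small circle transcribed as long precursors from both of its strands, the heavy and the light one. The precursors are cut at the transfer RNAs that lie between the genes, and the released messengers and ribosomal RNAs receive a short poly(A) tail. The coding rows make subunits of respiratory complexes I, III and IV and of the ATP synthase (complex V), and the ribosomal RNAs form the core of the mitochondrial ribosome. In single-cell data a high share of these reads is widely used as a sign of a damaged cell, because RNA inside mitochondria is kept when the cytoplasm leaks.

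In all, 8115 cells from 14 mice were counted, from 487 to 757 a mouse, and no cell name was shared between mice. Total reads ran from 26250369 to 51708776 a mouse, and the median reads per cell from 28203 to 52630. Values are reads and not molecules, since the table was not collapsed by molecular identifier. Intervals on counts of cells cover counting error only. An interval on reads treats copies of a molecule as independent, so it is too narrow even for counting error. Clusters were made without the 36 mitochondrial rows and named from marker genes, as T cell-like, NK cell-like, monocyte- or macrophage-like, dendritic cell-like and neutrophil-like, and are called by those cell types below. Although the cells were labelled CD45+, a stroma-like cluster of 500 cells and an epithelial or tumour-like cluster of 61 cells were also present. In sums over all cells, fewer cells of a type and less RNA per cell cannot be told apart.

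Several rows share bases, and these shared stretches limit which row a read can be given to. Positions and sequences are those of mm10 (GRCm38) with GENCODE M21 names, read 5′ to 3′ on the named strand. MT-Atp8 (chrM:7766-7969, + strand) ends inside MT-Atp6 (chrM:7927-8607, + strand), MT-Nd4l ends inside MT-Nd4, and MT-Nd5 (+ strand) ends inside MT-Nd6 (chrM:13552-14070, − strand). These 3 are not all the overlaps, as MT-Atp6 and MT-Co3, for example, share the base at chrM:8607. They are shown because reads on them could be counted for either row, and capitals mark the start codon of MT-Atp6 within MT-Atp8.
MT-Atp8 and MT-Atp6, chrM:7927-7969 (+): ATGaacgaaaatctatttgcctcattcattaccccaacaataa
MT-Nd4l and MT-Nd4, chrM:10167-10173 (+): atgctaa
MT-Nd5 and MT-Nd6, chrM:13552-13565 (+): ttaatctcgagtaa
The strand setting of the counting is not given in the sources used here, so reads of MT-Nd6 and of its antisense partners cannot be told apart. Nuclear transcripts of at least 95% identity to 50 or more bases are annotated for MT-Atp6, MT-Co1, MT-Co2, MT-Co3, MT-Nd2, MT-Nd3, MT-Nd4, MT-Nd4l and MT-Nd5. None of these nuclear copies is a row of the table, and how the authors placed reads that match both is not given in the sources used here, so levels of these 9 rows carry that uncertainty.

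The 36 rows held 6.15% of all reads after the cut at 25%, against 6.65% before it. The coding rows held 5.23% of reads after the cut and 5.66% before it. The ribosomal RNAs held 0.921% after and 0.982% before. The transfer RNAs held 0.00433% of reads after and 0.00443% before, or 22187 and 22921 reads over all cells. As shares of mitochondrial reads the 3 kinds stayed close across the cut, with coding rows at 85.0% after and 85.2% before and ribosomal RNAs at 14.96% after and 14.77% before. The 27 rows on the + strand held all but 0.0245% of mitochondrial reads before the cut, and the 9 rows on the − strand, MT-Nd6 and 8 transfer RNAs, held 8429 reads.

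Among the coding rows, the subunits of cytochrome c oxidase (complex IV) and MT-Atp6 stood highest per length. After the cut MT-Co3, a core subunit of complex IV, averaged 10684 CPM (counts scaled to a common library total) per kb of gene over the 14 mice. MT-Atp6, the proton-channel subunit of the ATP synthase, had 10610, and the complex IV subunits MT-Co2 and MT-Co1, which carry its copper and haem centres, had 10160 and 9338. These 4 rows lay within a narrow band, and the next coding row, MT-Nd1 of complex I, had 3983 CPM per kb. MT-Cytb, the only mitochondrially encoded subunit of complex III, had 3277 CPM per kb. The other complex I subunits were spread from 2246 for MT-Nd4, 2044 for MT-Nd3, 1762 for MT-Nd4l and 1626 for MT-Nd2 to 746 for MT-Nd5. MT-Atp8, which shares its messenger with MT-Atp6, had 986 CPM per kb. MT-Nd6, the only coding row of the light strand, was lowest at 25.3 CPM per kb and had a read in 1455 of 8115 cells (17.9%), while MT-Co1 had one in 8064 (99.4%).

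**Figure D1:**
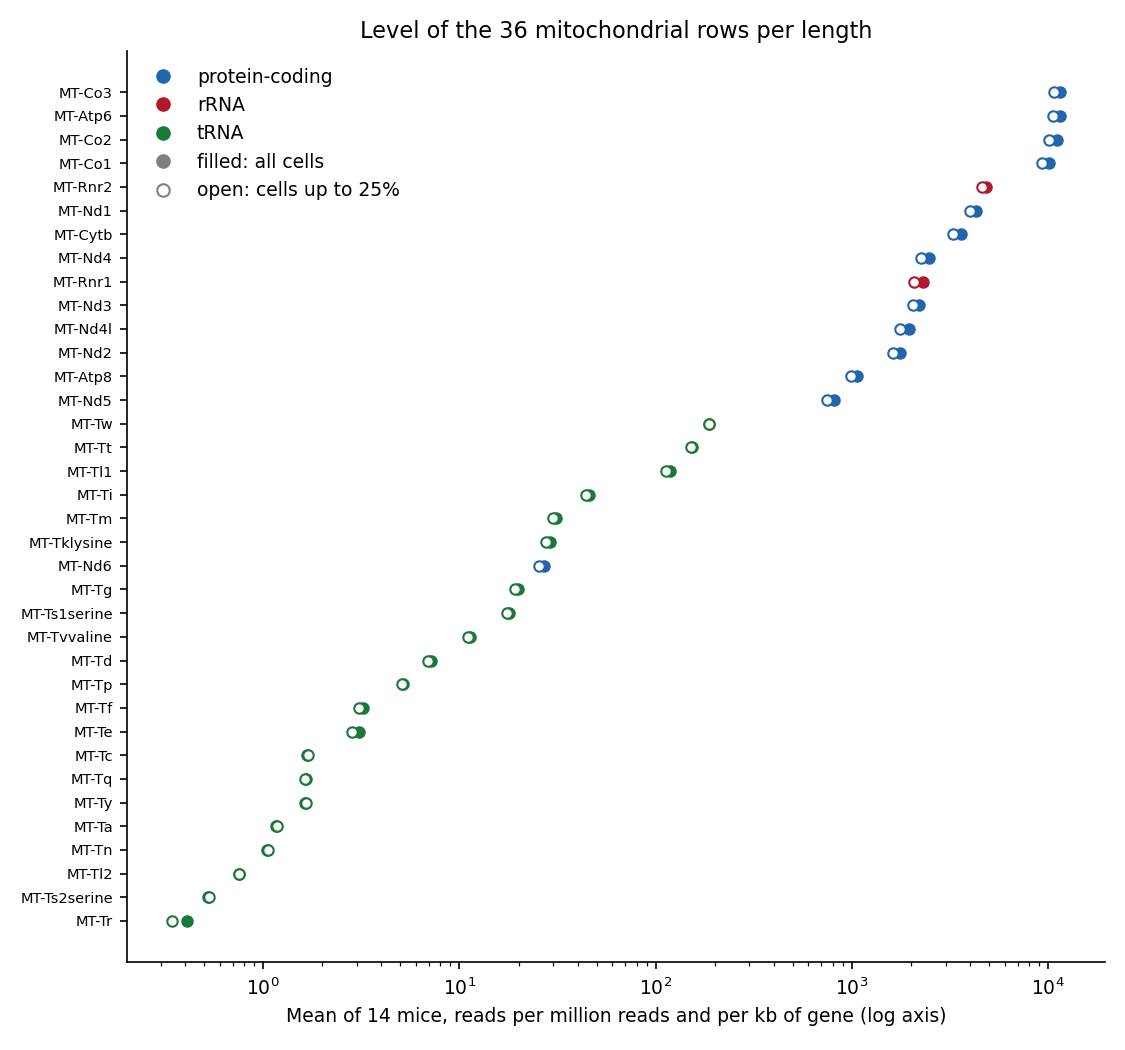
Mean CPM per kb of gene (log axis) of the 36 mitochondrial rows over 14 mice, with filled points for all cells and open points for cells up to 25%. MT-Co3, MT-Atp6, MT-Co2 and MT-Co1 lead, MT-Nd6 lies among the transfer RNAs, and most open points lie just left of the filled ones.

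In sums, MT-Co1 held the most reads of any row, at 14428 ± 514 CPM (SD, n = 14 mice) after the cut and 23.5% of mitochondrial reads. The spread between mice was small for the rows of complex IV and wider for those of complex I, with MT-Co2 at 6950 ± 221 CPM and MT-Nd2 at 1688 ± 236 CPM. MT-Nd6 had 13.1 ± 1.46 CPM. The last bases of 4 coding rows are printed here because the messengers differ in how their stop codon is made, with capitals for the bases of the stop. In mouse mitochondria a messenger that ends in a bare T receives the rest of its stop codon from the poly(A) tail, the same tail by which RNA is caught on oligo-dT beads.
MT-Co1, chrM:6843-6872 (+): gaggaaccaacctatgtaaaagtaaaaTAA
MT-Nd1, chrM:3678-3707 (+): tttacagcgggagtaccaccatacataTAG
MT-Co3, chrM:9361-9390 (+): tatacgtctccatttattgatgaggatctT
MT-Cytb, chrM:15259-15288 (+): tcgaagacaaaatactaaaattatatccaT
MT-Co3, MT-Cytb and MT-Nd4 end past their last full codon by 1 base, and they had ranks 1, 7 and 8 per length among the 36 rows. The other 10 coding rows end in a full stop codon.

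Of the ribosomal RNAs, MT-Rnr2, the RNA of the large ribosomal subunit, had rank 5 per length at 4584 CPM per kb. MT-Rnr1, the RNA of the small subunit, had 2074 CPM per kb and rank 9. MT-Rnr2 averaged 7252 ± 456 CPM after the cut and MT-Rnr1 1981 ± 89.1 CPM (SD, n = 14 mice). The longest run of A in each of these rows is shown in capitals, since RNA was caught by poly(A) and mitochondrial ribosomal RNA is known, in human cells, to carry only short tails.
MT-Rnr2, chrM:1476-1506 (+): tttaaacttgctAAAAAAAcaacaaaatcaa
MT-Rnr1, chrM:693-721 (+): tcagcaaaccctAAAAAggtattaaagta
MT-Co1, chrM:6104-6134 (+): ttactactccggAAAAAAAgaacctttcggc
The run in MT-Rnr2 is 7 bases long, that in MT-Rnr1 5 bases and that in MT-Co1 7 bases, and the longest of all 36 rows, in MT-Nd2 and MT-Tr, is 8 bases. Whether priming at such runs gave reads was not tested.

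Transfer RNA rows were sparse. MT-Tw, the tryptophan transfer RNA, had 12.5 ± 2.13 CPM after the cut (SD, n = 14 mice) and reads in 1238 cells before it. MT-Tt (threonine) had 10.2 ± 1.86 CPM and MT-Tl1 (leucine) 8.48 ± 2.05 CPM. Then came MT-Ti (isoleucine) at 3.04 CPM, MT-Tm (methionine) at 2.07, MT-Tklysine at 1.79, MT-Tg (glycine) at 1.30 and MT-Ts1serine at 1.20 CPM. The other 13 rows stayed below 1 CPM, from 0.763 for MT-Tvvaline to 0.0233 for MT-Tr, which had 14 reads in 14 cells. The histidine transfer RNA has no row in the table used here. The 4 sequences are shown as the 3 transfer RNAs with most reads and the leading one of the − strand.
MT-Tw, chrM:4950-5016 (+): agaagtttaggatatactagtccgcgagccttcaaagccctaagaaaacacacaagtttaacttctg
MT-Tt, chrM:15289-15355 (+): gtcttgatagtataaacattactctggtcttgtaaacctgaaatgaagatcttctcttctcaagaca
MT-Tl1, chrM:2676-2750 (+): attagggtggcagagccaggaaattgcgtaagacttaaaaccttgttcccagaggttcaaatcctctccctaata
MT-Ts1serine, chrM:6870-6938 (−): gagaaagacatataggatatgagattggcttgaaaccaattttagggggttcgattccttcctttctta
The 3 leading rows each touch a messenger or a ribosomal RNA of the + strand. MT-Tw starts inside the last bases of MT-Nd2, MT-Tt follows MT-Cytb directly, and MT-Tl1 lies directly between MT-Rnr2 and MT-Nd1. MT-Ts1serine lies opposite the last bases of MT-Co1, and cells that had it held 1.20 reads of it on average, against 5.31 reads of MT-Tw per cell that had that row. Reads of free transfer RNA and of uncut precursor cannot be told apart in these counts.

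Mitochondrial reads took a like share of most cells, with a small group of cells far above the rest. The median cell had 5.62% of its reads in the 36 rows, the middle range by quartiles was 4.25% to 7.35%, and 4008 cells lay between 5% and 10%. The highest cell had 98.1% and 1 cell had no mitochondrial read. The cut at 25% took out 383 of 8115 cells (4.72%) and left 7732, beside 7613 that the study states under its own filter. Just inside the cut, 69 cells had 20% to 25%, and just outside it 44 cells had 25% to 30%, while 251 cells had over 50%.

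Cells over the cut were small libraries. Their median was 9990 reads over 398 genes, against 39133 reads over 2078 genes in the other cells. Outside the 36 rows they had a median of 3306 reads, against 36872. They held 8.40% of mitochondrial reads and 0.986% of all reads. With cells ordered by reads and split into 4 equal bins, 14.9% of cells were over the cut in the lowest bin (5666 to 17134 reads), then 3.30%, 0.592% and, in the highest bin, 0.0493%.

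**Figure D2:**
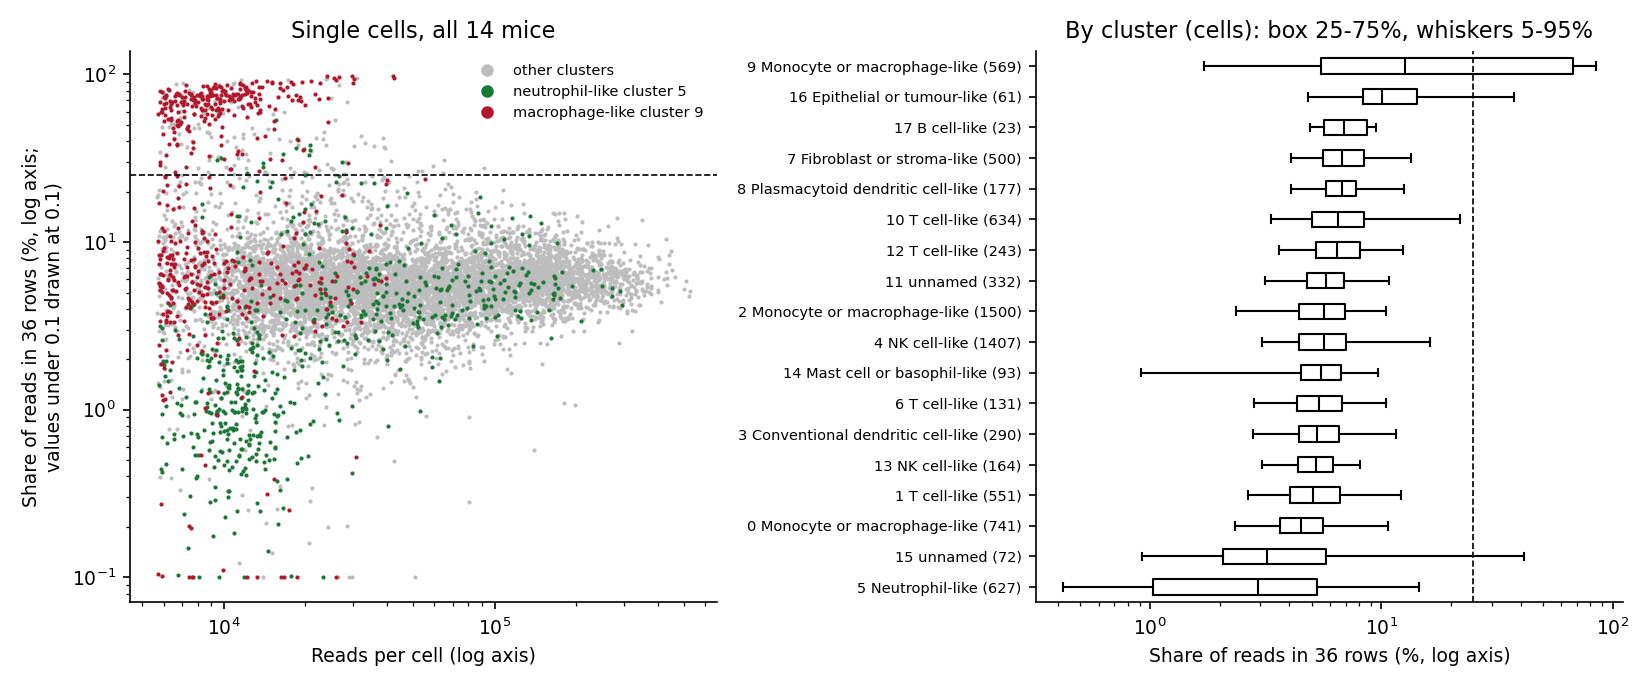
Left, share of reads in the 36 rows against reads per cell for all cells of the 14 mice (both log axes, dashed line at 25%), with macrophage-like cluster 9 in red and neutrophil-like cluster 5 in green. Right, the same share by cluster (box, 25% to 75% of cells; whiskers, 5% to 95%; cells in brackets), where cluster 9 reaches highest at a median of 12.6% and neutrophil-like cells lie lowest at 2.92%.

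Most cells over the cut sat in 1 cluster, numbered 9, of 569 cells. Its leading genes were Gatm, C1qc, Arg1, Apoe and Rn28s1, and the macrophage markers C1qc, Apoe, Arg1 and Lyz2 were among its top 50 genes, so it was called macrophage-like. It held 253 of the 383 cells over the cut (66.1%), and 44.5% of its own cells were over. The larger macrophage-like cluster 2 (1500 cells) had 1 cell over the cut and cluster 0, with the monocyte genes Vcan and Ly6c2, had 3 of 741. T cell-like cluster 10 had 28 cells over, NK-like cluster 4 had 34, the unnamed cluster 15 had 11 of 72 and the epithelial or tumour-like cluster 6 of 61. That last cluster also had a high median among all its cells, 10.1%, against 6.76% in the stroma-like cluster and 5.65% in macrophage-like cluster 2.

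Within cluster 9 the cells fell into a group of high and a group of common shares. The 253 cells over the cut had a median of 70.2% mitochondrial reads, with 6197 mitochondrial, 2739 other and 9396 total reads. The other 316 cells had 5.80%, with 555 mitochondrial, 8214 other and 8711 total reads. Cells over the cut held more mitochondrial reads and fewer others, with 336 genes against 724. Reads of cytoplasmic and nuclear marker RNAs were also unlike. In CPM of the reads outside the 36 rows, cells over had 4767 of Rn18s and 1030 of Rn28s1, the cytoplasmic ribosomal RNAs, against 2751 and 339 in the cells not over, and 1909 against 752 of the nuclear RNA Malat1. Another nuclear RNA, Neat1, lay the other way, at 85.2 against 102. Of macrophage genes, Lyz2 had 2773 against 3963, Apoe 668 against 1106, C1qa 525 against 619 and Arg1 2036 against 1991. Ptprc, which encodes CD45, had 828 against 1107. These are sums over cells with no test.

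The mixture of mitochondrial RNAs differed across the cut in cluster 9. MT-Rnr2 took 7.46% ± 0.929 of mitochondrial reads in cells over the cut and 11.9% ± 1.44 in the other cells (SD, n = 14 mice). It was lower in the cells over in 14 of 14 mice (two-sided exact sign-flip permutation over mice, adjusted p = 0.00183 over 15 rows). MT-Cytb took 6.83% ± 1.03 in cells over and 5.30% ± 0.905 in the others (higher in 13 of 14 mice, exact permutation adjusted p = 0.00183). MT-Nd4 took 5.72% against 4.36% (13 of 14 mice) and MT-Nd4l 1.15% against 0.866% (12 of 14 mice), each with an exact permutation adjusted p = 0.00229. The other 11 rows did not pass, with adjusted p from 0.125 for MT-Nd2 (2.77% against 2.06%) upward. MT-Rnr1 took 4.12% in cells over and 3.61% in the others (adjusted exact permutation p = 0.219), so the 2 ribosomal RNAs did not move together. These tests were added after the data had been seen, and the cut itself uses the sum of the rows but not their proportions. T cells over the cut were too few for a test by mouse. In their pooled reads, MT-Rnr2 took 10.0% of mitochondrial reads in 41 cells over against 15.1% in 1518 others, and MT-Cytb 7.72% against 5.24%, while MT-Co1 took 20.1% against 24.3%.

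**Figure D3:**
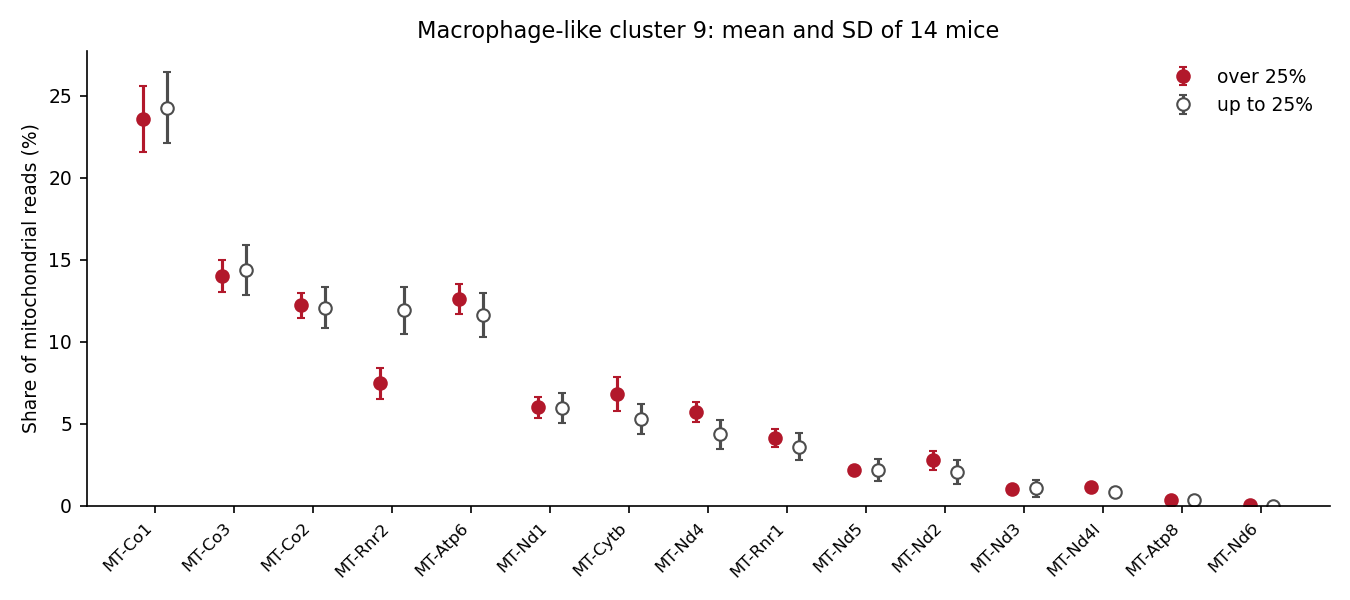
Share of mitochondrial reads taken by each coding and ribosomal row in macrophage-like cluster 9 (mean and SD of 14 mice), in cells over 25% (red) and up to 25% (open). MT-Rnr2 lies lower in the cells over, at 7.46% against 11.9%, and MT-Cytb and MT-Nd4 lie higher.

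The next comparison asks whether the treatments went with another mitochondrial share per mouse. In the minP1_PDL1 mice the 36 rows took 6.25%, 6.54%, 6.49% and 6.41% of all reads before the cut. In the minP1 mice they took 7.0003%, 6.70%, 6.54% and 6.73%, and in the PDL1 mice 6.69%, 6.39% and 7.10%. In the Control mice they took 6.74%, 6.69% and 6.74%. All 4 minP1_PDL1 mice lay below all 3 Control mice, and the PDL1 mice spread across the whole range. The difference of minP1_PDL1 from Control was −0.301 percentage points (p = 0.0286 by a two-sided exact permutation of mice, which can go no lower with 4 and 3 mice, and adjusted p = 0.143 over 5 comparisons). From minP1 it was −0.322 points (exact permutation p = 0.0571, adjusted p = 0.143) and from PDL1 −0.301 points (exact permutation adjusted p = 0.286). The minP1 mice differed from Control by 0.0215 points and the PDL1 mice by −0.000145 points, each with an adjusted exact permutation p = 1. With 3 against 3 mice, as in PDL1 against Control, no p under 0.1 is possible.

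After the cut the minP1_PDL1 mice had 5.96%, 6.12%, 5.83% and 5.67%. The minP1 mice had 6.48%, 6.27%, 5.998% and 6.28%, the PDL1 mice 6.10%, 5.89% and 6.39%, and the Control mice 6.47%, 6.19% and 6.33%. The minP1_PDL1 mice again lay below the Control mice without overlap (difference −0.432 points, exact permutation p = 0.0571, adjusted p = 0.143). The size of the difference moved with the cells counted. Before the cut it was, as a mean over cells, −0.0587 points, and without cells of high doublet score −0.0755, and without the stroma-like and epithelial or tumour-like clusters −0.161. Neutrophils, which had low mitochondrial shares, took 10.0% ± 2.07 of cells in minP1_PDL1 and 4.06% ± 1.10 in Control (SD). They took 10.8% ± 1.91 in PDL1 and 6.26% ± 1.75 in minP1. Without neutrophils the difference of minP1_PDL1 from Control was −0.271 (adjusted exact permutation p = 0.0714). The part of neutrophil numbers in the share was not tested.

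By kind, the coding rows separated the groups most. They took 5.45% ± 0.0783 of reads in minP1_PDL1, 5.77% ± 0.180 in minP1, 5.72% ± 0.315 in PDL1 and 5.70% ± 0.0223 in Control before the cut (SD). The minP1_PDL1 mice did not overlap with the Control mice or the minP1 mice (exact permutation p = 0.0286, adjusted p = 0.0714 in each). After the cut they averaged 4.99%, against 5.35% in Control, still without overlap (exact permutation p = 0.0286, adjusted p = 0.143). Against the minP1 mice, at 5.34%, they then overlapped (exact permutation p = 0.0857, adjusted p = 0.214). Before the cut the ribosomal RNAs took 0.966% ± 0.0685 in minP1_PDL1, 0.968% ± 0.0313 in minP1, 1.00% ± 0.0564 in PDL1 and 1.02% ± 0.0467 in Control, with adjusted exact permutation p from 0.714 to 0.971. Transfer RNAs took 0.00412% in minP1_PDL1, 0.00443% in minP1, 0.00454% in PDL1 and 0.00466% in Control (adjusted exact permutation p from 0.643 to 0.900). The log2 ratio of ribosomal to coding reads was −2.50 ± 0.09 in minP1_PDL1, −2.58 ± 0.06 in minP1, −2.51 ± 0.07 in PDL1 and −2.48 ± 0.07 in Control. None of its comparisons passed (adjusted exact permutation p from 0.571 to 0.829). After the cut, none passed for ribosomal RNAs, transfer RNAs or the ratio either (adjusted exact permutation p from 0.429 to 0.943).

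**Figure D4:**
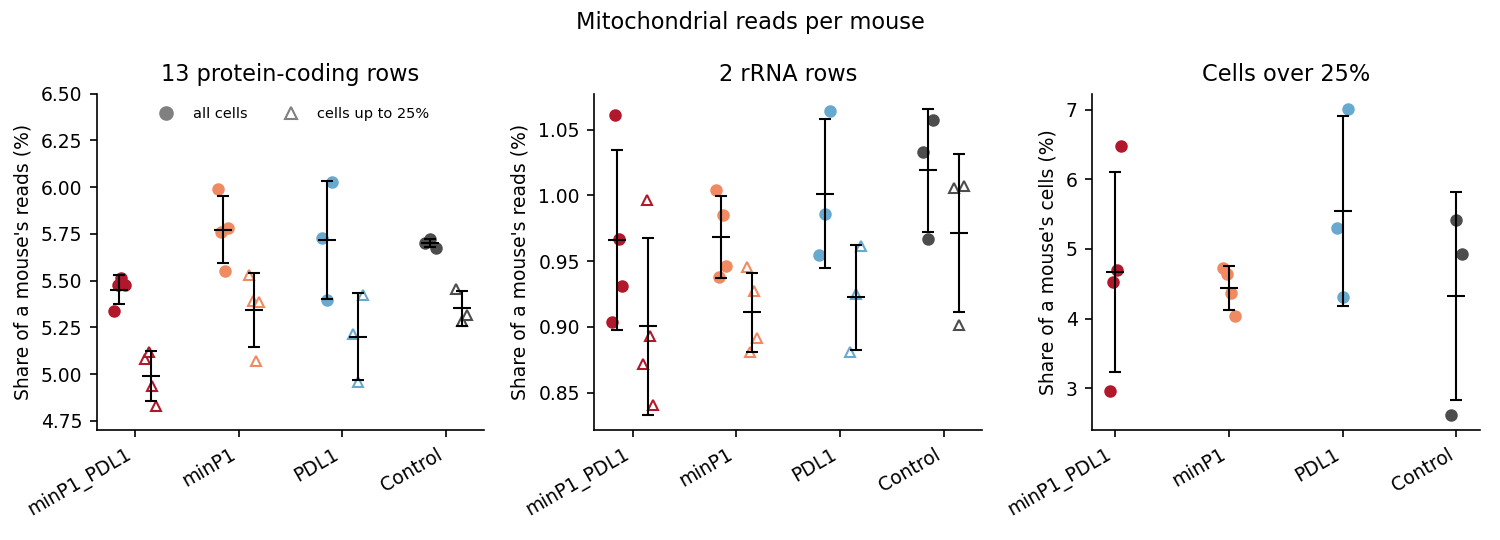
Share of each mouse's reads in the coding and ribosomal rows for all cells (filled) and cells up to 25% (open triangles), and share of its cells over 25%; bars give mean and SD of 3 or 4 mice. In all cells the coding rows took 5.45% on average in minP1_PDL1 mice and 5.70% in Control mice, without overlap, while the shares of cells over 25% overlapped among all groups.

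The share of cells over the cut did not separate the groups. It was 2.96%, 4.53%, 4.697% and 6.47% in the minP1_PDL1 mice and 4.73%, 4.63%, 4.36% and 4.04% in the minP1 mice. It was 5.29%, 4.31% and 7.01% in the PDL1 mice and 2.62%, 5.41% and 4.93% in the Control mice. Counting error alone was wide at these numbers, as 13 of 497 cells in the lowest mouse, Control_1, gave an exact 95% interval of 1.40% to 4.43%, and 38 of 542 in PDL1_3 gave 5.01% to 9.50%. Every comparison had an adjusted exact permutation p = 0.914. Cluster 9 took 6.27% ± 1.61 of cells in minP1_PDL1, 7.502% ± 1.23 in minP1, 6.87% ± 0.855 in PDL1 and 7.16% ± 2.38 in Control (SD).

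Row by row, no mitochondrial transcript passed in any comparison of groups over all CD45+ cells after the cut. Of the 36 rows 27 were tested (13 coding, 2 ribosomal and 12 transfer RNAs), among 18410 genes, of which 0% passed in each of the 5 comparisons at an adjusted p under 0.05 (edgeR). At an unadjusted p under 0.05 lay 7 of the 27 rows in minP1_PDL1 against Control, 6 in minP1_PDL1 against minP1, 0 in minP1_PDL1 against PDL1, 1 in minP1 and 3 in PDL1 against Control. Over all genes those shares were 10.4%, 6.01%, 4.22%, 6.94% and 6.58%. DESeq2 also called 0 of the rows in each, with 18 to 27 of them tested. The comparisons with Control share the same 3 Control mice.

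Of the 7 complex I rows, all had log2 changes below 0 in minP1_PDL1 against Control, and none passed. MT-Nd1, the core subunit at the quinone site, had 3678, 3607, 3369 and 3409 CPM in the minP1_PDL1 mice after the cut. It had 4115, 3837, 3464 and 4022 CPM in the minP1 mice, 3808, 3444 and 4029 in the PDL1 mice and 4447, 3933 and 4198 in the Control mice. All minP1_PDL1 mice lay below all Control mice and 2 of them below every other mouse. The log2 change of minP1_PDL1 from Control was −0.24 (SE 0.06, edgeR adjusted p = 0.320), from minP1 −0.13 (SE 0.06) and from PDL1 −0.08 (SE 0.06). MT-Nd2 had a log2 change from Control of −0.29 (SE 0.12), MT-Nd3 −0.26 (SE 0.08), MT-Nd4 −0.20 (SE 0.07) and MT-Nd5 −0.22 (SE 0.09), all subunits of the membrane arm. MT-Nd4l stood at −0.17 (SE 0.09) and MT-Nd6 at −0.16 (SE 0.15). The same rows were also below Control in the single treatments, from −0.22 (MT-Nd2) to −0.09 (MT-Nd3) in minP1 and from −0.22 (MT-Nd6) to −0.16 (MT-Nd4l) in PDL1, with edgeR adjusted p of 0.735 and above.

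MT-Cytb of complex III, which passes electrons on to cytochrome c, was placed like the complex I rows. It had 3986, 3535, 3281 and 3200 CPM in the minP1_PDL1 mice, 4260, 3758, 3348 and 3680 in minP1, 3966, 3165 and 3863 in PDL1, and 4338, 3928 and 4171 in Control. The minP1_PDL1 mice overlapped with every group. Its log2 change was −0.23 (SE 0.08, edgeR adjusted p = 0.403) for minP1_PDL1, −0.13 (SE 0.08) for minP1 and −0.18 (SE 0.09) for PDL1 against Control.

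The complex IV rows had other values. MT-Co1 had 13356, 14541, 14399 and 14461 CPM in the minP1_PDL1 mice, 14982, 15080, 14772 and 14979 in minP1, 14251, 14534 and 14905 in PDL1, and 13888, 14060 and 13779 in Control. All minP1 and PDL1 mice lay above all Control mice, and the minP1_PDL1 mice spanned the Control range. Its log2 change from Control was 0.12 (SE 0.04, edgeR adjusted p = 0.695) in minP1, 0.07 (SE 0.04) in PDL1 and 0.04 (SE 0.04) in minP1_PDL1. MT-Co2 had log2 changes from Control of −0.05 in minP1_PDL1, 0.04 in minP1 and −0.01 in PDL1, and MT-Co3 of −0.05, 0.08 and −0.01 in the same order. Against minP1, MT-Co3 in minP1_PDL1 had a log2 change of −0.12 (SE 0.03, edgeR adjusted p = 0.645), with 7898, 8254, 8172 and 7831 CPM in minP1_PDL1 and 8839, 8851, 8434 and 8867 CPM in minP1, without overlap.

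For the ATP synthase, MT-Atp6 had 7099, 7116, 6719 and 6364 CPM in the minP1_PDL1 mice and 7662, 7518, 6902 and 7465 in minP1. It had 7307, 6894 and 7632 in PDL1 and 7597, 7490 and 7392 in Control. The minP1_PDL1 mice lay below all Control mice, with a log2 change of −0.12 (SE 0.04, edgeR adjusted p = 0.389). MT-Atp8 had a log2 change from Control of −0.10 (SE 0.07) in minP1_PDL1. The ribosomal RNAs had −0.11 (SE 0.06) for MT-Rnr2 and −0.06 (SE 0.05) for MT-Rnr1 in that comparison. Of the transfer RNAs, MT-Tl1, which lies between MT-Rnr2 and MT-Nd1, had −0.49 (SE 0.24, edgeR adjusted p = 0.505), MT-Tw −0.15 (SE 0.18) and MT-Tt −0.21 (SE 0.23).

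The median log2 change of the 27 rows from Control was −0.15 in minP1_PDL1, −0.09 in minP1 and −0.09 in PDL1, beside medians over all genes of 0.01, 0.01 and −0.00. It was −0.07 for minP1_PDL1 against minP1 and −0.04 against PDL1, beside −0.00 and 0.00 over all genes.

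Nuclear genes of the same machinery, from lists chosen with earlier results of these data known, did not pass either in minP1_PDL1 against Control. Of 36 nuclear complex I subunits 25 had values below Control (median −0.06 on the log2 scale), and Ndufa12 had the smallest p at −0.25 (SE 0.10, edgeR adjusted p = 0.409). Of 78 mitochondrial ribosomal proteins 62 lay below (median −0.10), with the smallest p for Mrpl36 at −0.43 (SE 0.12, adjusted p = 0.336). Of 10 mitochondrial chaperones and proteases 9 lay below (median −0.31), with the smallest p for Hspd1, a folding chaperone of the mitochondrial matrix, at −0.59 (SE 0.16, adjusted p = 0.320). Lists tied to sample handling had medians above 0. The nuclear-retained RNAs had a median of 0.22, with the smallest p for Malat1 at 0.35 (SE 0.09, adjusted p = 0.303), and the genes of the dissociation response 0.20, with the smallest p for Fos, an immediate-early factor induced by tissue digestion, at 0.57 (SE 0.11, adjusted p = 0.300). Against Control the nuclear-retained RNAs also had a median of 0.21 in PDL1 and 0.16 in minP1, and the dissociation genes 0.20 and 0.10. None of the members of these 5 lists passed (edgeR), and their part in the mitochondrial values was not tested.

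Within cell types, no mitochondrial row passed in any of 25 comparisons of groups by edgeR (19 to 25 rows tested) or DESeq2 (14 to 25). Of all genes 0% passed in 24 of them, and in T cells of minP1_PDL1 against Control 0.00852% did (1 of 11740). Monocytes and macrophages had the most rows at an unadjusted p under 0.05, with 10 of 25 in minP1_PDL1 against minP1, where 7.22% of all genes lay there. Their median log2 change was −0.18, beside 0.00 over all genes. MT-Co1 had −0.14 (SE 0.03), MT-Co3 −0.19 (SE 0.04) and MT-Atp6 −0.22 (SE 0.05), each with an edgeR adjusted p = 0.356. Against Control 7 of 25 rows lay there (MT-Co2 −0.13, MT-Atp6 −0.17 and MT-Nd1 −0.17), beside 7.33% of all genes, and against PDL1 5 of 25, beside 6.65%. Before the cut these cells had 6.17%, 6.28%, 6.41% and 6.15% mitochondrial reads in minP1_PDL1, 6.86%, 6.69%, 6.64% and 6.93% in minP1, 7.20%, 6.31% and 7.12% in PDL1, and 6.58%, 6.66% and 6.498% in Control. The minP1_PDL1 mice lay below the minP1 and Control mice without overlap and overlapped with the PDL1 mice (exact permutation p = 0.0286 against minP1 and p = 0.0571 against Control and against PDL1, adjusted p = 0.476 over 25 comparisons). After the cut they averaged 5.47%, against 6.11% in minP1, now with overlap, and 5.94% in Control, still without it (exact permutation p = 0.0571 each, adjusted p = 0.429).

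The other cell types had fewer such rows. In dendritic cells 3 of 19 rows lay at an unadjusted p under 0.05 in minP1_PDL1 against Control, MT-Nd3 at −0.44 (SE 0.16), MT-Atp6 at −0.24 (SE 0.09) and MT-Nd1 at −0.28 (SE 0.11), and 2 in PDL1 against Control, MT-Nd1 at −0.31 and MT-Nd3 at −0.36, beside 4.91% and 5.28% of all genes. In neutrophils 2 of 19 did so in minP1 against Control, MT-Nd4 at −0.35 and MT-Atp6 at −0.36 (SE 0.15 and 0.16), beside 6.92% of all genes. In T cells MT-Rnr1 did so in minP1_PDL1 against PDL1 at 0.19 (SE 0.09) and against minP1 at 0.17 (SE 0.08), which is 1 of 19 rows in each, beside 4.61% and 4.20% of all genes. In NK cells no row did in any comparison, and their share before the cut was 6.96% ± 0.995 in PDL1 and 5.95% ± 0.284 in Control (SD, n = 3 mice each) without overlap (exact permutation p = 0.1, the smallest possible). After the cut it was 6.15% in PDL1 and 5.81% in Control with overlap (exact permutation p = 0.3). Whether an effect differed between cell types was tested in 50 differences of effects, of which 0 reached an unadjusted exact permutation p under 0.05 (smallest p = 0.1, adjusted p = 0.588).

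Between cell types the shares differed more than between groups. Neutrophils had 5.58% ± 0.628 mitochondrial reads before the cut, dendritic cells 6.18% ± 0.393, NK cells 6.49% ± 0.735, monocytes and macrophages 6.61% ± 0.333 and T cells 7.15% ± 0.628 (SD, n = 14 mice). The dendritic cells pooled a conventional cluster of 290 cells and a plasmacytoid cluster of 177 cells. Summed over all mice before the cut, these had unlike shares of 5.66% and 6.90%. Neutrophils were lower than T cells in 14 of 14 mice, by 1.56 points on average (two-sided exact sign-flip permutation over mice, difference −1.56, adjusted p = 0.00061 over 10 pairs), and so were dendritic cells (difference −0.972, 14 of 14 mice, same p). After the cut dendritic cells differed from T cells by −0.331, lower in 11 of 14 mice (adjusted exact permutation p = 0.0302), and as a median over cells by 0.0672, which did not pass. Neutrophils were also lower than monocytes and macrophages, with a difference of −1.02 in 13 of 14 mice (adjusted exact permutation p = 0.00122). Without cluster 9 that difference was −0.280 and did not pass. Monocytes and macrophages differed from T cells by −0.541 points, lower in 11 of 14 mice (adjusted exact permutation p = 0.0471), but by 1.26 points without cells of high doublet score, a measure of how far a cell looks like a mixture of others. Leaving out any mouse but minP1_4, PDL1_1 or PDL1_3 also ended that call (−0.437 points without minP1_PDL1_4). Neutrophils against T cells no longer passed without those cells either, though the difference was larger (−1.72). Only 371 neutrophils were left there, and mice with fewer than 10 of them were not used. High scores marked 1294 monocytes and macrophages (median 122380 reads), and 73.6% of macrophage-like cluster 2. The 1516 monocytes and macrophages left had a median of 33387 reads. Their median share was 5.54%, against 5.50% in those of high score, but their share of summed reads was 8.35% against 5.99%. Neighbours in the order were closer, and monocytes and macrophages differed from NK cells by 0.113 points (adjusted exact permutation p = 0.563). The order changed with the cut, after which neutrophils had 5.26%, monocytes and macrophages 5.87%, NK cells 6.01%, dendritic cells 6.08% and T cells 6.41%. Of monocytes and macrophages 9.15% of cells were over the cut, of NK cells and neutrophils 2.23%, of dendritic cells 1.71% and of T cells 2.63%.

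Neutrophils also held most cells of low share. Of 213 cells under 1% mitochondrial reads 153 were neutrophils, which was 24.4% of them, against 1.25% of monocytes and macrophages, 0.642% of dendritic cells, 0.321% of T cells and 0.127% of NK cells. Per mouse the median neutrophil had 3.10% ± 0.849 (SD, n = 14 mice), against 5.83% ± 0.300 for T cells, 5.59% ± 0.225 for NK cells, 5.51% ± 0.410 for monocytes and macrophages and 5.90% ± 0.391 for dendritic cells. Median reads per cell were 17681 in neutrophils and 18588 in T cells. The neutrophils were of mixed kind by doublet score. The 371 neutrophils of low score had a median of 1.27% (11698 reads) and the 256 of high score 4.82% (58783 reads).

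The ribosomal RNAs were the clearest difference between cell types. The log2 ratio of ribosomal to coding reads was −2.66 ± 0.09 in monocytes and macrophages, −2.63 ± 0.11 in dendritic cells, −2.42 ± 0.14 in NK cells, −2.41 ± 0.17 in neutrophils and −2.15 ± 0.09 in T cells (SD, n = 14 mice). It was lower than in T cells in 14 of 14 mice for monocytes and macrophages and for dendritic cells, and in 13 of 14 for NK cells and neutrophils (adjusted exact permutation p from 0.000305 to 0.000814). Neutrophils against NK cells did not pass (adjusted exact permutation p = 0.920), nor did dendritic cells against monocytes and macrophages (adjusted exact permutation p = 0.421). At clustering resolution 0.5 the first of these passed (0.273, adjusted exact permutation p = 0.00279). Without cells of high doublet score both passed (0.422 and 0.0723, adjusted exact permutation p = 0.00549 and 0.0217). The pooled dendritic clusters lay on either side, at −2.50 for conventional and −2.77 for plasmacytoid cells in sums over all mice. Without cells of high doublet score, neutrophils stood 0.11 above T cells (adjusted exact permutation p = 0.341).

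In the fit between cell types 21 of the 36 rows were tested (13 coding, 2 ribosomal and 6 transfer RNAs) among 14199 genes, with each mouse as a block. Against T cells, 11 rows passed in monocytes and macrophages (7 higher, 4 lower), where 33.7% of all genes passed. In dendritic cells 10 rows passed (5 higher, 5 lower), beside 35% of genes. In neutrophils 5 rows passed, all lower, beside 31.6% of genes, and in NK cells 4 passed (2 higher, 2 lower), beside 14.5%. In neutrophils and NK cells the counts of rows are near those shares. Without cells of high doublet score 2 rows passed in monocytes and macrophages, 3 in dendritic cells, 16 in neutrophils and 1 in NK cells. DESeq2 called 2 in NK cells. Shares of all genes that passed in these alternatives are not given here, so their counts of rows cannot be set beside them. The medians over the rows were 0.13 in monocytes and macrophages, −0.09 in dendritic cells, −0.20 in neutrophils and 0.08 in NK cells, beside 0.12, −0.06, −0.17 and 0.03 over all genes.

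**Figure D5:**
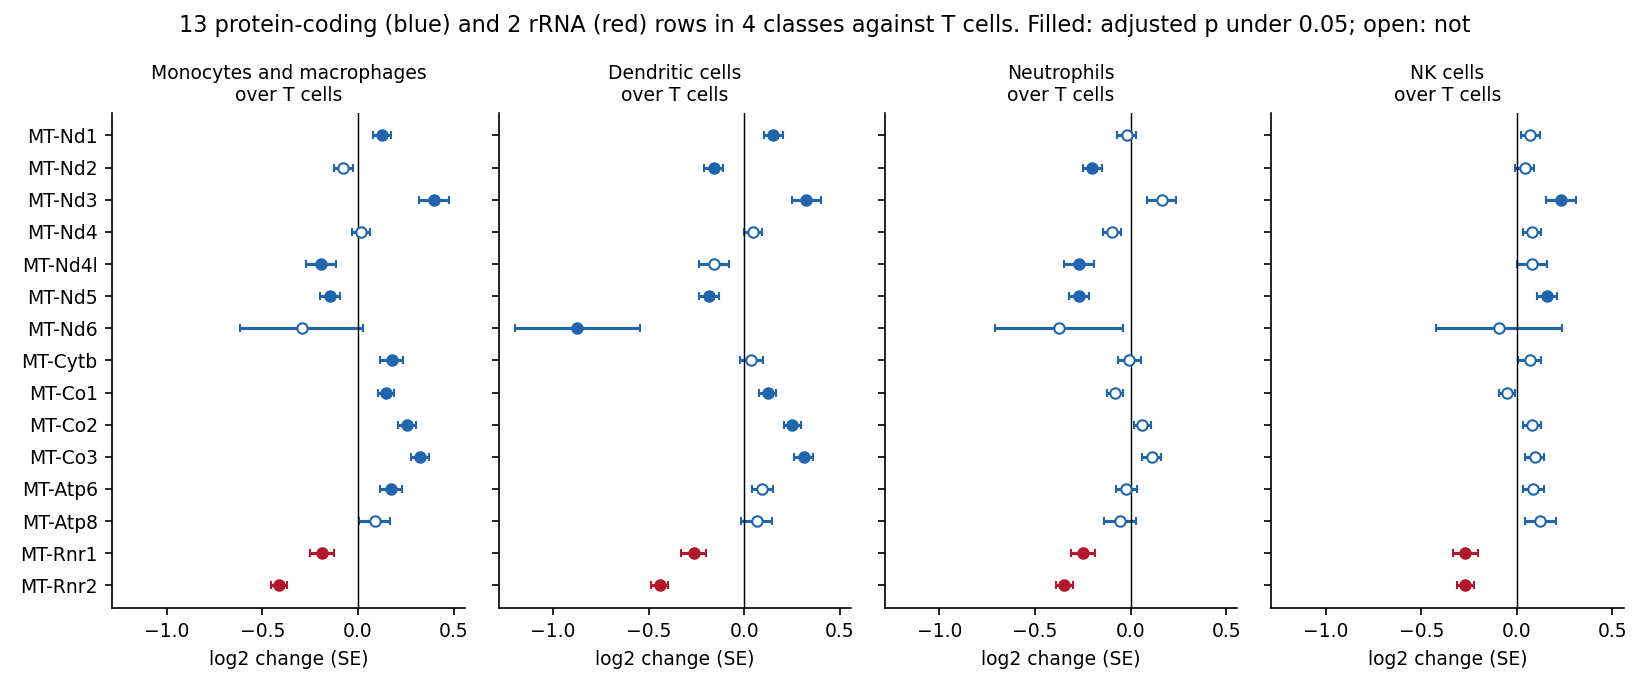
Log2 change (with SE) of the coding (blue) and ribosomal (red) rows in 4 cell types against T cells after the cut, over 14 mice, on 1 common axis, with filled points for an adjusted p under 0.05. Both ribosomal RNAs lie left of 0 in all 4, MT-Co2 and MT-Co3 lie right of 0 in monocytes and macrophages and in dendritic cells, and MT-Nd6 has the widest error.

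MT-Rnr2 fell in all 4 cell types relative to T cells, with log2 changes of −0.44 in dendritic cells (edgeR adjusted p = 4.98e-13), −0.41 in monocytes and macrophages, −0.35 in neutrophils and −0.27 in NK cells (SE 0.04 each). MT-Rnr1 fell too, with log2 changes of −0.26, −0.19, −0.25 and −0.27 in the same order (SE 0.07 each). The messengers split. Complex IV rows rose in monocytes and macrophages (MT-Co1 0.15, MT-Co2 0.25 and MT-Co3 0.32, SE 0.04 to 0.05) and in dendritic cells (0.12, 0.25 and 0.31). They did not pass in NK cells (−0.05, 0.08 and 0.09) or neutrophils (−0.08, 0.06 and 0.11). In neutrophils MT-Co2 and MT-Co3 turned to falls that passed at clustering resolution 0.5 (−0.21 and −0.25) and without cells of high doublet score (−0.65 and −0.71). Without those cells MT-Co3 still passed in monocytes and macrophages (0.32) and dendritic cells (0.31), but MT-Co1 (0.17 and 0.13) and MT-Co2 (0.23 in each) did not, nor did MT-Rnr1 in monocytes and macrophages (−0.26) or NK cells (−0.27). MT-Co1 in monocytes and macrophages also did not pass with RLE scaling or in DESeq2 (0.08 in each).

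Complex I rows went both ways. MT-Nd3 rose in monocytes and macrophages (0.40, SE 0.08), dendritic cells (0.33) and NK cells (0.23), and MT-Nd1 rose in the first 2 of these (0.13 and 0.15), but without cells of high doublet score none of these passed. MT-Nd5, at the far end of the membrane arm, fell in monocytes and macrophages (−0.15), dendritic cells (−0.19) and neutrophils (−0.27) and rose in NK cells (0.16). MT-Nd4l fell in monocytes and macrophages (−0.19) and neutrophils (−0.27), and MT-Nd2 in dendritic cells (−0.16) and neutrophils (−0.20). Without cells of high doublet score MT-Nd5 turned in dendritic cells (0.07), as did MT-Nd5 (0.04) and MT-Nd4l (0.05) in monocytes and macrophages, and without the cut MT-Nd1 turned in dendritic cells (−0.04). MT-Nd6 fell in dendritic cells (−0.87, SE 0.33, edgeR adjusted p = 0.0318). Of the rest, MT-Cytb and MT-Atp6 rose in monocytes and macrophages (0.18 and 0.17), and MT-Nd4 and MT-Atp8 passed in no cell type. Without cells of high doublet score only 2 rows passed in monocytes and macrophages and 3 in dendritic cells, MT-Co3 among them in each. In NK cells 1 row passed there, so most calls of this paragraph did not hold in these cell types, while 16 rows passed in neutrophils. No transfer RNA row passed, with 0 of 6 also at an unadjusted p under 0.05 in edgeR.

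As a share of coding reads, which does not depend on the total, the rows could also be followed by mouse, in tests added after the data had been seen. These tests matched the split above for some rows and not for others. MT-Co3 took 17.2% ± 0.278 of coding reads in monocytes and macrophages and 17.4% ± 0.330 in dendritic cells, against 15.5% ± 0.534 in T cells (higher than in T cells in 13 of 14 mice for monocytes and macrophages and in 14 of 14 for dendritic cells). MT-Nd5 took 2.16% ± 0.129 in monocytes and macrophages, 2.15% ± 0.208 in dendritic cells, 2.28% ± 0.265 in neutrophils and 2.69% ± 0.173 in T cells (lower in 14 of 14 mice each, exact permutation adjusted p = 0.000577 over 52 tests). MT-Co1 took 28.1% ± 0.990 in NK cells and 30.1% ± 1.10 in T cells, lower in 14 of 14 mice (same p). Unlike their log2 changes, MT-Co1 (29.6%) and MT-Nd1 (6.68% against 6.90%) were lower in monocytes and macrophages than in T cells (adjusted exact permutation p = 0.0269 and 0.0385). MT-Co3 was also higher than in T cells in neutrophils (16.9%) and NK cells (16.0%), and MT-Co2 in neutrophils (14.0% against 13.3%). Their adjusted exact permutation p were 0.00299, 0.00952 and 0.00198.

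Nuclear partners of these rows are given from the same lists. All 11 nuclear complex IV subunits tested rose in monocytes and macrophages against T cells (median 0.67) and in dendritic cells (median 0.57). Cox5b, which sits on the matrix side of that complex, rose by 0.67 (SE 0.07) and 0.61 (SE 0.07). Of 36 nuclear complex I subunits 26 rose in monocytes and macrophages and 22 in dendritic cells, and none fell, beside 33.7% and 35% of all genes that passed in either direction. In neutrophils 4 rose and 2 fell, a smaller share than the 31.6% of all genes that passed. Of 78 mitochondrial ribosomal proteins 38 rose and 1 fell in monocytes and macrophages (median 0.67), with Mrpl33 at 0.72 (SE 0.09), in the same cells in which both mitochondrial ribosomal RNAs were lower. Among genes of mitochondrial DNA upkeep and RNA handling, 6 of 25 fell in neutrophils and none rose, a share also below the 31.6% of all genes. They include Tfam, the packaging and transcription factor of mitochondrial DNA, at −0.88 (SE 0.31, adjusted p = 0.0211). Of 16 glycolytic genes 11 rose in monocytes and macrophages (median 0.81), with Pgam1, a mutase of glycolysis, at 1.55 (SE 0.09). Depth moved with these differences. The median reads per cell were 65979 in monocytes and macrophages, 65938 in dendritic cells, 25873 in NK cells, 17681 in neutrophils and 18588 in T cells, and its part in the result was not tested.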

How the data were processed

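Values in the deposited table are whole read counts, for 22836 genes and 8262 cell barcodes. Per the labels, the authors trimmed adapters, aligned reads to the mm10 transcriptome, kept barcodes above the knee-plot inflection and assigned mice by hashtag, with cutadapt 2.10, Bowtie2 2.3.4.1 and Seurat 2.3.4 named in the submitters' processing notes. Counts are reads, with a median of 10 per non-zero entry. Barcodes of the 14 mice number 8115, and 147 columns assigned to no mouse (141 doublets, 6 without hashtag) were not used. Widest half-width of a 95% Wilson interval for a mouse's share was 0.00941 percentage points, which treats reads as independent and so understates the error.

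Shares before the cut used all cells, and edgeR used cells up to 25%. Clusters were made with scanpy 1.11.5 and igraph 0.11.9 without the 36 rows (2000 variable genes, 30 components, 20 neighbours, Leiden resolution 1, seed 0). A cluster was named when at least 3 markers of a type were among its top 50 genes by fold that at least 25% of its cells held. Doublets were scored by simulation and not removed, since a score over 0.5 marked 29.7% of cells and 74.8% of simulated doublets. Counts were summed per mouse, and per mouse and cell type with at least 10 cells, and tested by quasi-likelihood with TMM scaling in edgeR 4.0.16 (R 4.3.3, limma 3.58.1) with DESeq2 1.42.0 as an alternative. Adjusted p-values are by Benjamini-Hochberg over all genes tested, with a threshold of 0.05. Shares were compared by two-sided exact permutation over mice, and cell types by exact sign flips over 14 mice (smallest p 0.000122), in Python 3.11.15 with scipy 1.17.1 and numpy 2.4.6. The fits were tested on simulated data.

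The members and gene lists were chosen with earlier results of these data known. Over all cells, coding and ribosomal rows are all named in minP1_PDL1 against Control, and only in part in the other comparisons of groups. Of the transfer RNAs from 1 CPM upward, only MT-Tl1, MT-Tw and MT-Tt are given a change between groups. Between cell types, each coding or ribosomal row that passed is named. Within a cell type up to 3 rows are named in a comparison, and of a nuclear list at most 1 gene. The printed rows and genes are thus a selection. Genes named within cluster 9 were chosen after the data had been seen. Gene positions and sequences are from GENCODE M21. Alternatives were other scalings, filters, cuts, clusterings and left-out mice.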

Additional observations from a re-analysis of the deposited data

Results flagged for a closer look

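Within a group of 4 mice, 5 values stood far from the other 3, in 68 groups of values looked at, where chance alone gives about 1 in 20, or 3.4. After the cut, MT-Atp8 had 192 CPM in minP1_3, against 208 to 209 CPM in the other minP1 mice. MT-Co3 had 8434 CPM in the same mouse, against 8839 to 8867 CPM. MT-Tm had 2.44 CPM in minP1_4, against 1.18 to 1.35 CPM. In the minP1_PDL1 mice, MT-Atp8 had 179 CPM in minP1_PDL1_4, against 198 to 201 CPM in the others, and MT-Co1 had 13356 CPM in minP1_PDL1_1, against 14399 to 14541 CPM.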

How the results depend on the processing

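No mitochondrial row passed between groups under any alternative run, and the share of minP1_PDL1 mice stayed below Control in each. Replicate numbers did not pair the mice (same-numbered correlations from −0.148 to 0.453 over 19 pairs, 9 over 0.1). With the numbers as a replicate block, that difference was −0.298 points (adjusted exact p = 0.625), 0 rows were called and no other call changed.

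The causes of the changes below were not tested, and the alternatives without high doublet scores, cluster 9 or neutrophils, and those of the ribosomal ratio between cell types, were chosen after seeing the data. The share of minP1 against Control, which was not called, was −0.0688 points with the cut at 25%, −0.0842 with a cut at 10%, −0.0494 as a mean over cells and −0.0613 without cluster 9, and −0.0638 to 0.0897 with each mouse left out. For PDL1 against Control it was 0.539 as a mean over cells, 0.181 without non-immune clusters, 0.333 without high doublet scores, 0.0661 without neutrophils and −0.187 to 0.168 with each mouse left out. For cells over 25%, minP1 against Control was −0.0758 points without non-immune clusters and −0.732 to 0.665 with each mouse left out, minP1_PDL1 against Control −0.506 to 0.914 and against minP1 −0.377 to 0.794. The log2 ribosomal ratio without non-immune clusters was 0.0279 for PDL1 and 0.0564 for minP1_PDL1 against Control. With each mouse left out it was −0.0691 to 0.00691 and −0.0590 to 0.0147 for these, and −0.0301 to 0.0439 for minP1_PDL1 against PDL1.

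Between cell types, rows called against T cells were 3 in dendritic cells, 2 in monocytes and macrophages, 16 in neutrophils and 1 in NK cells without high doublet scores. At resolution 0.5 they were 7 in monocytes and macrophages, 14 in neutrophils and 2 in NK cells. Without the cut they were 6 in monocytes and macrophages and 2 in NK cells, where RLE scaling and DESeq2 also gave 2. With each mouse left out they were 7 to 10 in monocytes and macrophages and 2 to 4 in NK cells. Shares of all genes that passed in these settings are not given here, so the counts are not results about the mitochondrial rows alone.

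Shares after the cut differed by −0.137 points for monocytes and macrophages against NK cells, 0.0734 for dendritic against NK cells and 0.210 for dendritic cells against monocytes and macrophages. As medians over cells they differed by −0.0838, 0.306 and 0.390 in these pairs and by 0.0672 for dendritic against T cells. At resolution 0.5, monocytes and macrophages against NK cells became a call at 0.361, and neutrophils lost theirs against NK cells (−0.694) and dendritic cells (−0.672). Without high doublet scores, monocytes and macrophages stood 1.26 above T cells and 1.81 above NK cells, and calls were lost for NK cells against T cells (−0.543) and for neutrophils against T cells (−1.72), NK cells (−1.26) and dendritic cells (−0.961). These neutrophil differences were larger than the −1.56, −0.910 and −0.591 of all cells. Mice with fewer than 10 cells of a type were not used, and the number of mice left is not given here. Without cluster 9, monocytes and macrophages against NK cells was −0.629, dendritic cells against monocytes and macrophages 0.311 and neutrophils against monocytes and macrophages −0.280, no longer a call. With all mice, NK cells against T cells was a call at −0.653 (adjusted exact permutation p = 0.0328). With each mouse left out, it ran from −0.802 to −0.551 and was no longer a call in 8 cases. Monocytes and macrophages against T cells ran from −0.674 to −0.437 and lost their call in 11 cases.

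The log2 ribosomal ratio of dendritic cells against monocytes and macrophages was −0.0150 after the cut and 0.0723 without high doublet scores. Neutrophils against T cells was −0.0153 at resolution 0.5 and 0.115 without high doublet scores, and against NK cells 0.273 and 0.422 in these settings and −0.0233 to 0.0348 with each mouse left out.

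Against T cells, log2 changes turned without the cut in dendritic cells for MT-Cytb (−0.20), MT-Nd1 (−0.0358) and MT-Nd4 (−0.16), and at resolution 0.5 in neutrophils for MT-Co2 (−0.21) and MT-Co3 (−0.25). Without high doublet scores they turned for MT-Nd5 in dendritic cells (0.0741), for MT-Nd4l (0.0488) and MT-Nd5 (0.0411) in monocytes and macrophages, and for MT-Co2 (−0.65), MT-Co3 (−0.71) and MT-Nd3 (−0.48) in neutrophils. Transfer RNA rows held 0.00433% of reads after the cut.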
